A study of Mus musculus with 24 samples.

Results

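Camk1d, Slc14a1, Mcam, Lgals9, Zbed3 and Ano10 are 6 genes of the 24007 in the deposited table. They were picked from among genes that lay higher in every basal library of Id4 knockout (KO) mice than in every basal library of wild-type (WT) mice. The comparison of KO with WT basal cells therefore chose the genes, and its values are given as a description without a test. The tests below compare luminal groups, whose values the choice did not use. Tests between the luminal populations, and of the KO effect between them, were fitted together with the basal libraries. Those libraries enter the filter and the estimated spread of these fits. All mice were females of the inbred FVB/N strain, 10 to 12 weeks of age and in estrus, and no treatment was given in the labels. Each library came from the mammary glands of 4 to 8 pooled mice, sorted by flow cytometry on CD24, CD29 and CD61 after lineage-positive cells were removed. The groups were KO basal, WT basal, KO luminal progenitor (LP), WT LP, KO mature luminal (ML) and WT ML, with 4 biological replicates each and 24 libraries in all. Neither the part of Id4 that the KO allele lacks nor the cells that lack it are stated in the labels.

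Basal cells of the mammary gland are mostly contractile myoepithelial cells, which surround the luminal cells and squeeze milk along the ducts. Luminal progenitors are the cells from which milk-secreting cells arise, and mature luminal cells include those that sense ovarian hormones. ID4 is a helix-loop-helix protein without a DNA-binding domain, and it holds E proteins in dimers that cannot bind their DNA site, the E-box. The 6 genes have no single pathway in common. Camk1d encodes a protein kinase switched on by calcium and calmodulin. Slc14a1 encodes a urea transporter of the cell membrane. Mcam (CD146) encodes an adhesion molecule of the immunoglobulin superfamily that is also found on endothelial cells and pericytes, and Lgals9 encodes galectin-9, a lectin that binds beta-galactosides. Zbed3 encodes a zinc finger protein that binds Axin, and Ano10 belongs to the anoctamin family of ion channels and lipid scramblases.

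The genes lie at 6 separate places of the mm10 (GRCm38) genome in the GENCODE M21 annotation, all of them protein-coding. Camk1d (ENSMUSG00000039145) spans chr2:5293457-5714515 on the minus strand, and Lgals9 (ENSMUSG00000001123) spans chr11:78962974-78984946 on the minus strand. Mcam (ENSMUSG00000032135) and Ano10 (ENSMUSG00000037949) both lie on chromosome 9, at 44134469 to 44142727 on the plus strand and at 122175874 to 122294423 on the minus strand. Zbed3 (ENSMUSG00000041995) lies on the plus strand of chromosome 13, as Id4 does, at 95323612 to 95337841. Slc14a1 (ENSMUSG00000059336) lies on chromosome 18 from 78100091 to 78142119.

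Since the partners of ID4 bind E-boxes, the 250 bases upstream of the annotated start were searched for CANNTG, in RefSeq promoter windows on GRCm38.p6. The motif reads the same on both strands, and CACCTG, its reverse complement CAGGTG, and CAGCTG are special cases of it. Windows were found for 5 of the 6 genes (all but Slc14a1), and each held at least 1 E-box, where 66.2% of 32851 windows in the table did. CACCTG or CAGGTG was present in 3 of the 5, those of Camk1d, Mcam and Zbed3, against 17.2% of all windows. CAGCTG was present in Ano10, against 13.0% of all windows. The windows of Camk1d (chr2:5714763-5715012, minus strand), Lgals9 (chr11:78984925-78985174, minus strand), Zbed3 (chr13:95323355-95323604, plus strand) and Ano10 (chr9:122294424-122294673, minus strand) are shown 5′ to 3′ along the gene, with E-boxes in capitals, because they cover the range of E-box content among the genes. For Camk1d and Zbed3 the table holds 2 and 3 starts, and the window nearest the GENCODE start is shown. A match describes the letters in the window and says nothing of binding.

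Camk1d: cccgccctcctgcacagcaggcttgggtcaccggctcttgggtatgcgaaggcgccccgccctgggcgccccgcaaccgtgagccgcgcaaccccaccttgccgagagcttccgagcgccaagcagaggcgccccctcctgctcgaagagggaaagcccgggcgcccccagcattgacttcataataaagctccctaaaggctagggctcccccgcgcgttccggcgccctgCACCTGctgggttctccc

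Lgals9: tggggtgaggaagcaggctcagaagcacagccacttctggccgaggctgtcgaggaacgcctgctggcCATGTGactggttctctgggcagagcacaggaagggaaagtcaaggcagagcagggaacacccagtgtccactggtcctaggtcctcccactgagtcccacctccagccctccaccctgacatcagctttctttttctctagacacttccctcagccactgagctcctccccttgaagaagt

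Zbed3: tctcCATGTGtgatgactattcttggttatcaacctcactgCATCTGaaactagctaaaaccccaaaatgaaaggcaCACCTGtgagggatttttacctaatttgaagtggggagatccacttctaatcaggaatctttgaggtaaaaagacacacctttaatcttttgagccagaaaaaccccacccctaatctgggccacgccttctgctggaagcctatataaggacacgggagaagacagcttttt

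Ano10: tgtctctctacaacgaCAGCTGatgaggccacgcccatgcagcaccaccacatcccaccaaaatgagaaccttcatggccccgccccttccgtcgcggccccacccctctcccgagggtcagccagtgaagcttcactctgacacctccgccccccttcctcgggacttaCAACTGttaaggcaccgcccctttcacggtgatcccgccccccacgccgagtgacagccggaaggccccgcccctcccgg

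Zbed3 held 3 E-boxes in a window of 43.2% G and C, Ano10 held 2 in 65.2%, and Camk1d and Lgals9 held 1 each in 69.2% and 58.4%. Mcam also held 1, CACCTG, in a window of 73.6% G and C. The windows thus share no arrangement beyond the presence of CANNTG, which is common in the table as a whole.

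Depth and sample quality set the limits of all values below. Library totals ran from 3098433 to 7246445 estimated counts, and 3 counts were worth 0.378 to 0.976 CPM, the unit of level used below, in which a count is divided by its library's scaled total, on a scaling of all 24 libraries. The input was 0.5 to 2 ng of RNA, amplified without molecular identifiers, so limits drawn from counts cover counting error only. The targeted gene was checked first. Id4 stood at 10.3, 1.13, 11.1 and 0.942 CPM in KO basal replicates 1 to 4, against 86.3, 13.2, 29.9 and 39.6 CPM in WT basal replicates 1 to 4. The groups do not overlap, and no luminal library of either genotype held more than 7 counts. A list of 8 basal markers such as Krt5, Krt14 and Acta2 summed to between 9400 and 14100 CPM in KO basal and between 7760 and 13800 CPM in WT basal libraries, against at most 217 CPM in any luminal library, so the basal label fits these markers. KO basal replicate 3 had a median Spearman correlation of 0.739 with the rest of its group, and WT basal replicate 2 one of 0.777, the lowest of each group. WT basal replicate 2 also held 4350 CPM of 5 luminal progenitor markers, where the 4 KO basal libraries held 198 to 1190 CPM and the other 3 WT basal libraries 149 to 412 CPM.

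In KO basal cells the 6 genes stood at mean levels 2.6 to 17.3 times those of WT basal cells. Lgals9 had the smallest and Ano10 the largest ratio of means. In sorted bulk samples, more cells of a type and more RNA per cell cannot be told apart. Of the 11307 genes tested in the basal comparison, 121 (1.07%) had every KO library above every WT library, and 120 of these reached a mean of 5 CPM in KO. Every KO library was above every WT library for 1.5% of genes in LP and 1.24% in ML. In the basal edgeR fit 383 genes (3.39%) had an unadjusted p under 0.05, where 5% would if none differed. The 6 genes rank 2, 4, 5, 7, 10 and 11 among the 120 by the p-value of the fit (Camk1d, Slc14a1, Mcam, Lgals9, Zbed3 and Ano10 in that order). These ranks rest on the values that chose the genes, so they are a description and no test. By fitted fold change their ranks run from 1 for Ano10 to 51 for Lgals9, so they are not the 6 largest changes. The rule names the 6 genes and does not state why other genes so separated were left out. Just short of such separation lay Dusp10, whose lowest KO library held 6.03 CPM where the highest WT library held 6.04 CPM.

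**Figure D1:**
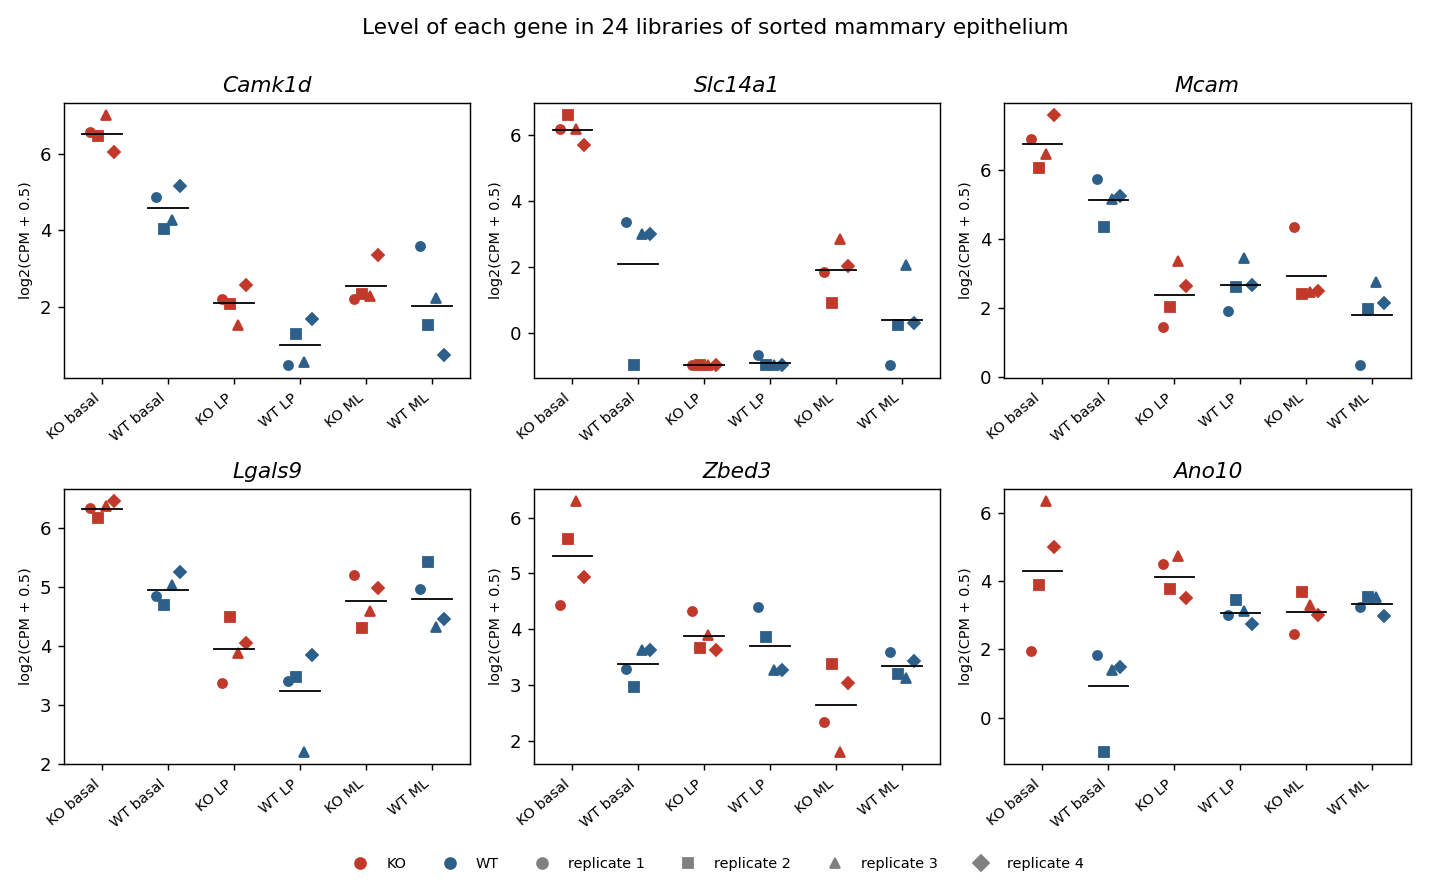
Level of each gene, as log2(CPM + 0.5), in the 24 libraries. Red points are KO and blue points WT libraries, symbols give the replicate number, and the line is the mean of the 4 plotted values. In every panel the 4 KO basal points lie above the 4 WT basal points, and Ano10 is the only gene whose KO basal points overlap those of KO LP.

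Slc14a1 came nearest to a transcript present in one genotype and scarce in the other. It stood at 72.3, 97.3, 72.2 and 51.3 CPM in KO basal replicates 1 to 4, against 9.71, 0, 7.54 and 7.46 CPM in WT basal replicates 1 to 4. The WT library at 0 was replicate 2, the one rich in luminal progenitor transcripts. The lowest KO library lay 5.28 times above the highest WT library, the widest gap of the 120 genes. The fitted log2 fold change was 3.62 (SE 0.80), and 3.21 without WT replicate 2.

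Camk1d was also separated with room to spare. It had 94.1, 87.6, 128 and 65.5 CPM in KO basal replicates 1 to 4, against 28.8, 15.9, 18.7 and 35.3 CPM in WT basal replicates 1 to 4. The lowest KO library lay 1.85 times above the highest WT library, and the fitted log2 fold change was 1.97 (SE 0.41). Counts behind these values were 278 to 584 in KO and 62 to 213 in WT, so counting error is small beside the spread between libraries.

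Lgals9 was the most even of the 6. It had 80.1, 71.1, 82.3 and 87.1 CPM in KO basal replicates 1 to 4, against 28.1, 25.3, 32.3 and 37.6 CPM in WT basal replicates 1 to 4. Its coefficient of variation over the KO libraries was 8.36%, where the other 5 genes had 25.7% to 105%. The fitted log2 fold change was 1.41 (SE 0.37), the smallest of the 6, and the lowest KO library lay 1.89 times above the highest WT library.

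Mcam had the highest mean CPM of the 6 in KO basal cells. It had 120, 66.4, 88.8 and 194 CPM in KO basal replicates 1 to 4, against 53.8, 19.8, 35.3 and 37.6 CPM in WT basal replicates 1 to 4. KO replicate 2 and WT replicate 1 were close, at a ratio of 1.23. The fitted log2 fold change was 1.71 (SE 0.42).

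Since Mcam also marks endothelial cells and pericytes, the levels of those lists are given beside it. The 10 endothelial markers, all of them detected in both genotypes, summed to between 51.3 and 267 CPM in KO basal and between 22.8 and 89.6 CPM in WT basal libraries. The 267 CPM belonged to KO replicate 3, which held less Mcam than KO replicates 1 and 4 and more than KO replicate 2. Pdgfrb, a receptor found on pericytes, averaged 23.5 ± 18.2 CPM in KO basal and 7.32 ± 6.87 CPM in WT basal libraries, and its log2 fold change of 1.71 (SE 0.90) equals that of Mcam. The 7 pericyte markers summed to between 33.2 and 105 CPM in KO and between 28.3 and 115 CPM in WT basal libraries, with Kcnj8 at 0 in both. KO replicate 4, the highest in Mcam, held the lowest pericyte sum of the KO libraries and an endothelial sum of 51.3 CPM. WT replicate 2, the lowest in Mcam, held the highest pericyte sum of all 8 basal libraries. The part of these cells in the Mcam values was not tested.

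**Figure D2:**
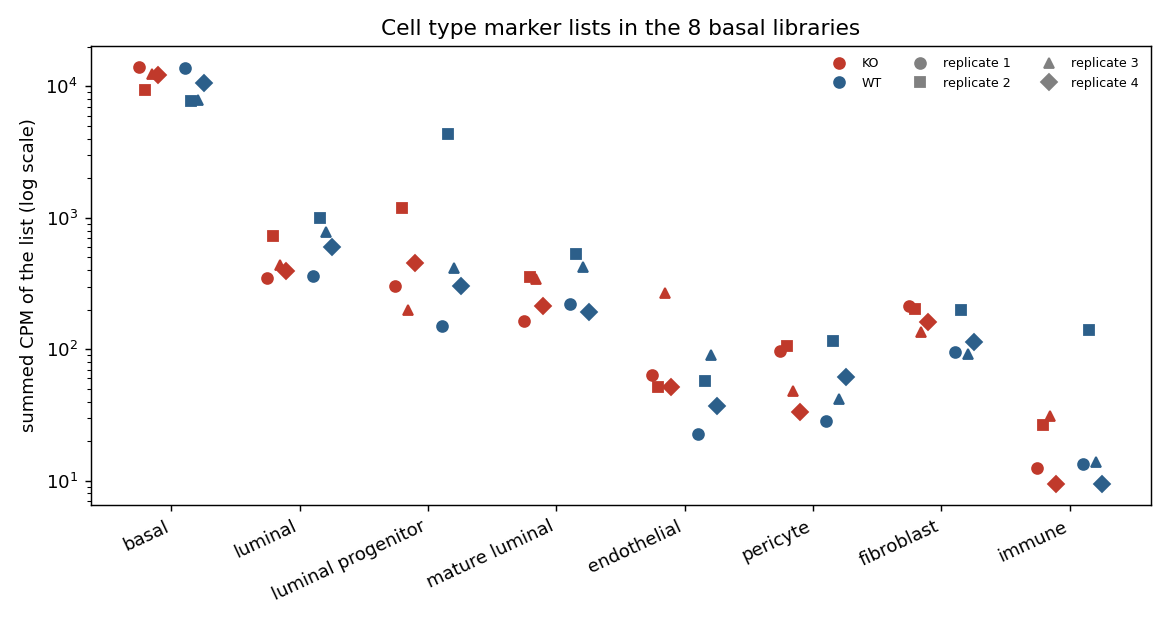
Summed CPM of 8 cell type marker lists in the 8 basal libraries, on a log axis, with KO libraries in red to the left of WT libraries in blue and symbols giving the replicate. WT replicate 2 stands out in the luminal progenitor list at 4350 CPM and in the immune list at 139 CPM, and KO replicate 3 in the endothelial list at 267 CPM.

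Zbed3 and Ano10 were the 2 genes that varied most among KO basal libraries. Zbed3 had 21.1, 48.6, 77.7 and 30.1 CPM in KO basal replicates 1 to 4, against 9.28, 7.27, 11.8 and 11.9 CPM in WT basal replicates 1 to 4. Ano10 had 3.38, 14.3, 80.7 and 31.3 CPM in KO basal replicates 1 to 4, against 3.04, 0, 2.11 and 2.32 CPM in WT basal replicates 1 to 4. For both genes KO replicate 1 was lowest and KO replicate 3, the library with the endothelial sum of 267 CPM, was highest. Ano10 had 21 counts in KO replicate 1 and 21 counts in WT replicate 1, so the separation of the groups there rests on library scaling and is within counting error. Fitted log2 fold changes were 2.20 (SE 0.58) for Zbed3 and 4.19 (SE 1.12) for Ano10. That of Ano10 fell to 3.15 without KO replicate 3 and to 2.75 without KO replicate 3 and WT replicate 2 together. Replicates 1 and 2 alone gave 2.56, and replicates 3 and 4 alone gave 4.74.

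Values of the other 5 genes without the same libraries follow. Without WT replicate 2 and KO replicate 3 together the log2 fold change was 1.60 for Camk1d, 3.19 for Slc14a1, 1.61 for Mcam, 1.31 for Lgals9 and 1.64 for Zbed3. Earlier results of these data had shown replicates 1 and 2 to differ from replicates 3 and 4 in the luminal cells, so values within each pair are given. From replicates 1 and 2, and from replicates 3 and 4, they were 2.01 and 1.95 for Camk1d, 4.13 and 3.13 for Slc14a1, 1.34 and 2.02 for Mcam, 1.48 and 1.36 for Lgals9, and 2.07 and 2.29 for Zbed3.

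**Figure D3:**
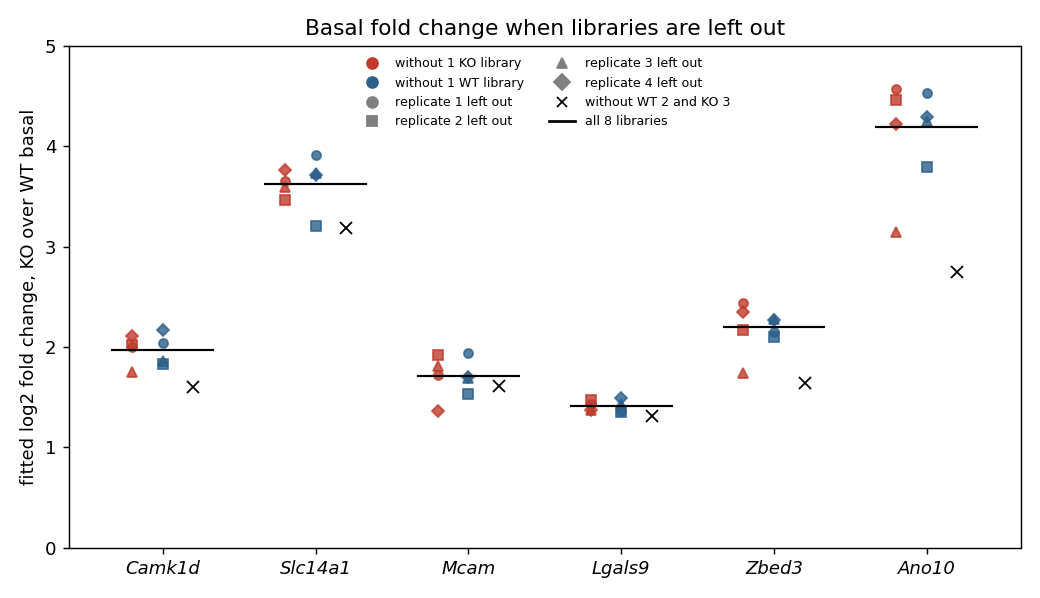
Fitted log2 fold change of KO over WT basal cells for each gene, from all 8 libraries (line), without 1 KO library (red) or 1 WT library (blue), and without WT replicate 2 and KO replicate 3 together (cross). All values are above 0, which the choice of the genes on these libraries left little room to change. Ano10 moves most, with 4.19 from all libraries and 2.75 at the cross.

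Per kilobase of gene length, which allows levels to be compared between genes, Lgals9 was the most abundant of the 6 in KO basal cells at 53.3 ± 4.48 CPM per kb (SD, n = 4). Mcam followed at 41.1 ± 19.5, Zbed3 at 23.4 ± 13.2, Slc14a1 at 21.9 ± 5.62, Camk1d at 13.5 ± 3.75 and Ano10 at 12.5 ± 13.1 CPM per kb. Neighbours in this order differ by less than the larger of their standard deviations, except Slc14a1 and Camk1d. In WT basal cells Lgals9 was again highest at 20.5 ± 3.56 CPM per kb, and Ano10 lowest at 0.719 ± 0.503 CPM per kb.

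Across the 3 populations the genes fell into different patterns, which are described without a test because the basal libraries chose the genes. Camk1d, Slc14a1 and Mcam had their highest mean levels in basal cells in both genotypes, as did Lgals9, whose WT basal and WT ML libraries overlapped. Every KO basal library lay above every KO LP library for 8.44% of 12711 genes, and every WT basal library above every WT LP library for 9.5% of 12771 genes. Set against ML libraries the shares were 10.9% in KO and 12.8% in WT. Camk1d averaged 93.9 ± 26.1 CPM in KO basal, 24.7 ± 9 in WT basal, 5.65 ± 2.70 in KO ML, 4.82 ± 4.61 in WT ML, 3.92 ± 1.27 in KO LP and 1.62 ± 0.861 in WT LP libraries (SD, n = 4 each). No luminal library of Camk1d reached a basal library, while the 4 luminal groups each overlapped their neighbour in the order. Mcam averaged 117 ± 55.8 CPM in KO basal, 36.6 ± 13.9 in WT basal, 8.77 ± 7.51 in KO ML, 6.35 ± 3.07 in WT LP, 5.39 ± 3.37 in KO LP and 3.60 ± 2.25 in WT ML libraries. WT basal and KO ML overlapped for Mcam through KO ML replicate 1 at 20 CPM and WT basal replicate 2 at 19.8 CPM. Slc14a1 averaged 73.3 ± 18.8 CPM in KO basal, 6.18 ± 4.25 in WT basal, 3.69 ± 2.25 in KO ML and 1.26 ± 1.61 in WT ML libraries. Its WT basal libraries overlapped both ML groups through WT basal replicate 2 at 0 CPM.

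Lgals9, Zbed3 and Ano10 were expressed in luminal cells as well. In Lgals9 the KO basal libraries stood above all others, and the mean levels of WT basal (30.8 ± 5.35 CPM), WT ML (28.4 ± 10.4 CPM) and KO ML (27.5 ± 7.57 CPM) differed by less than their standard deviations. Zbed3 lay at 44.4 ± 25 CPM in KO basal and at 10.1 ± 2.22 CPM in WT basal cells, which overlapped WT LP (13.3 ± 5.45 CPM) and WT ML (9.72 ± 1.54 CPM). Its KO basal libraries also lay above all KO LP libraries (14.6 ± 3.54 CPM). Ano10 had its lowest level in WT basal cells. It averaged 1.87 ± 1.31 CPM there, with every library below every WT LP library (8.09 ± 1.77 CPM) and every WT ML library (9.61 ± 1.81 CPM). Every WT basal library was below every WT LP library for 9.97% of the 12771 genes, and below every WT ML library for 14.2%. In KO mice Ano10 averaged 32.4 ± 34.1 CPM in basal, 18 ± 7.20 CPM in LP and 8.57 ± 3.16 CPM in ML cells, and these libraries overlapped.

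The first question for the luminal cells was whether the same genes also differed between KO and WT there, in libraries that did not choose them. In luminal progenitors none of the 5 genes tested passed, and edgeR called 0 of 11700 genes (0%), with 439 (3.75%) at an unadjusted p under 0.05, where 5% would be if none differed. With DESeq2 8 genes passed, none of them a member. Slc14a1 did not pass the filter on low counts, having 0 counts in the 4 KO and 1 count in the 4 WT LP libraries.

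Ano10 was the 1 member whose LP libraries did not overlap between genotypes. It had 22.0, 13.1, 26.0 and 10.9 CPM in KO LP replicates 1 to 4, against 7.56, 10.4, 8.19 and 6.17 CPM in WT LP replicates 1 to 4. The lowest KO library, at 10.9 CPM, stood just above the highest WT library, at 10.4 CPM. The log2 fold change was 1.16 (SE 0.39). Its unadjusted p of 0.0103 in edgeR became 0.999 after adjustment over all genes, which does not pass. Every KO LP library was above every WT LP library for 1.5% of the tested genes. Within replicates 1 and 2 the log2 fold change was 0.98, and within replicates 3 and 4 it was 1.35. KO LP replicate 3, the highest in Ano10, had a median Spearman correlation of 0.863 with its group and a total of 3786225 counts. Both were the lowest of the LP libraries, and without it the log2 fold change was 0.92 (SE 0.39).

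Camk1d had 4.14, 3.74, 2.37 and 5.44 CPM in KO LP replicates 1 to 4, against 0.882, 1.94, 0.964 and 2.69 CPM in WT LP replicates 1 to 4. KO replicate 3 lies below WT replicate 4, so the groups overlap, while KO was above WT for 4 of 4 replicate numbers. In LP that count was 4 for Ano10, 3 for Lgals9 and 2 for Zbed3. Mcam had KO below WT for 4 of 4 numbers, by only 5.79 against 5.85 CPM in replicate 4. The share of all genes at each of these counts was not counted, so they are no support. The log2 fold change of Camk1d was 1.26 (SE 0.64, edgeR adjusted p = 0.999), with 1.5 and 1.04 within the pairs of replicates. Values for Lgals9 ran from 9.80 to 21.9 CPM in KO LP and from 4.10 to 13.8 CPM in WT LP, with a log2 fold change of 0.68 (SE 0.42), while Zbed3 had 0.13 (SE 0.37) and Mcam -0.22 (SE 0.58). Each of these had an edgeR adjusted p of 0.999. Mature luminal markers, 5 in the list, summed to 846 to 1490 CPM in KO LP libraries and 487 to 727 CPM in WT LP libraries, without overlap. KO LP replicate 2 was highest both in that sum and in Lgals9. KO LP replicate 3, the highest in Ano10, held the lowest sum of the KO LP libraries at 846 CPM, and Camk1d was highest in KO LP replicate 4. The part of the difference in the LP values was not tested.

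In mature luminal cells none of the 6 passed either. There edgeR called 1 of 11747 genes (0.00851%), lower in KO, and with DESeq2 8 genes passed, none of them a member. No member had groups that did not overlap there, where every KO ML library was above every WT ML library for 1.24% of genes and below for 1.41%. Slc14a1 had 3.06, 1.37, 6.76 and 3.59 CPM in KO ML replicates 1 to 4, against 0, 0.683, 3.62 and 0.737 CPM in WT ML replicates 1 to 4. KO replicates 1, 2 and 4 lie below WT replicate 3, while KO was above WT for 4 of 4 replicate numbers. In ML that count was 3 for each of Camk1d, Mcam and Lgals9, 2 for Ano10 and 1 for Zbed3. The share of all genes at each of these counts was not counted, so they are no support. The numbers come from sample titles, from which the replicate tags of KO ML differ. The log2 fold change of Slc14a1 was 1.61 (SE 0.92, edgeR adjusted p = 0.998), and its counts were only 10 to 36 in KO and 0 to 18 in WT.

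Mcam had 20, 4.78, 5.07 and 5.21 CPM in KO ML replicates 1 to 4, against 0.765, 3.41, 6.24 and 3.98 CPM in WT ML replicates 1 to 4. A single library, KO replicate 1, stands apart from the other 3. The log2 fold change was 1.32 (SE 0.64, edgeR adjusted p = 0.998), and 0.50 without that library. Replicates 1 and 2 alone gave 2.59, and replicates 3 and 4 alone gave 0.05. The pericyte sum of KO ML replicate 1 was 160 CPM and its endothelial sum 59.8 CPM, against 79.1 to 115 CPM and 63.4 to 90.3 CPM in the other KO ML libraries, and their part in the value was not tested.

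The other 4 genes did not pass in ML either. Camk1d had a log2 fold change of 0.21 (SE 0.63), with -0.68 from replicates 1 and 2 alone and 1.43 from replicates 3 and 4 alone. WT replicate 1 was highest at 11.5 CPM, and without it the value was 1.15. That library also held the highest endothelial sum of the ML libraries, 166 CPM, whose part was not tested. Lgals9 had -0.04 (SE 0.30), Zbed3 -0.61 (SE 0.40, from -0.93 to -0.39 under 15 alternatives) and Ano10 -0.15 (SE 0.36), with edgeR adjusted p between 0.998 and 1. The difference of the KO effect between LP and ML, tested in a fit of all 24 libraries, passed for 0 of 14082 genes (0%). There 186 genes (1.32%) had an unadjusted p under 0.05, where 5% would if none differed, and DESeq2 called 1. Among the members it was -1.53 (SE 0.81) for Mcam, 1.32 (SE 0.98) for Ano10 and 1.05 (SE 0.77) for Camk1d, each with an adjusted p of 1 in edgeR. No value is given for Slc14a1, which had 0 counts in KO LP and 1 count in WT LP.

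**Figure D4:**
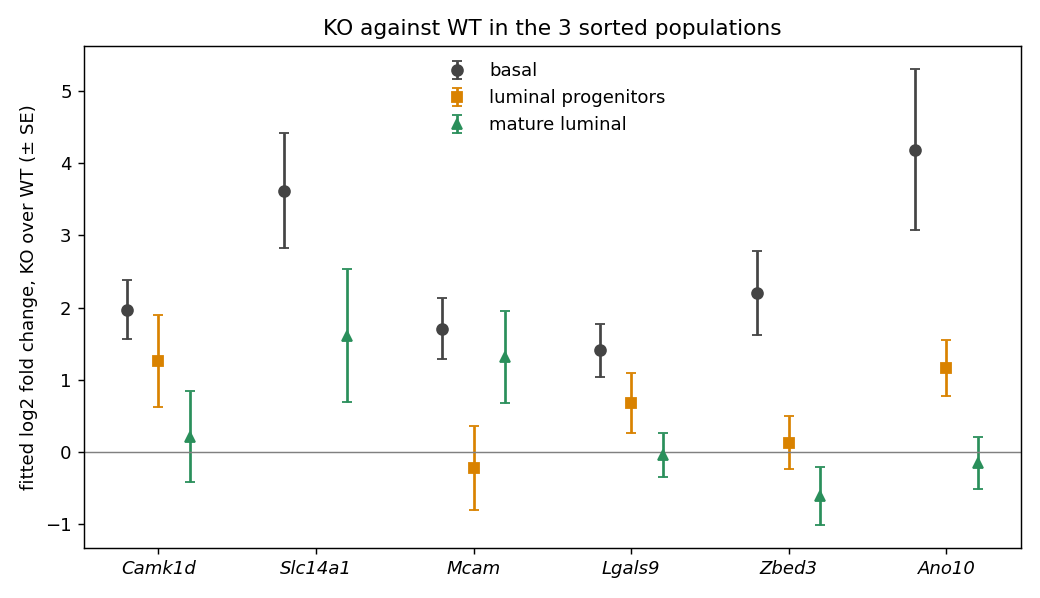
Fitted log2 fold change of KO over WT, with its standard error, for each gene in basal, LP and ML cells. Basal values chose the genes and run from 1.41 to 4.19, LP values run from -0.22 to 1.26 and ML values from -0.61 to 1.61, and Slc14a1 has no LP value because it was not tested there.

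The luminal populations were then compared with each other, to see which of them holds more of each gene. In WT mice 1 of the 6 genes, Lgals9, was lower in LP than in ML and passed. It had 10.1, 10.6, 4.10 and 13.8 CPM in WT LP replicates 1 to 4, against 30.7, 42.2, 19.5 and 21.4 CPM in WT ML replicates 1 to 4. The groups do not overlap, and every WT LP library was below every WT ML library for 12% of genes. The log2 fold change was -1.55 (SE 0.40, edgeR adjusted p = 0.0176), where 625 of 12771 genes (4.89%) were lower in LP and 845 (6.62%) higher, 11.5% in all. Without WT LP replicate 3 the adjusted p was 0.0524 and without WT ML replicate 2 it was 0.0774, and over 14 alternatives it ran from 0.000981 to 0.0774. In KO mice Lgals9 had 9.80 to 21.9 CPM in LP and 19.3 to 36.2 CPM in ML, and did not pass (log2 -0.80, SE 0.34, edgeR adjusted p = 0.242). The difference between the genotypes in this contrast was 0.73 (SE 0.51, edgeR adjusted p = 1).

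Slc14a1 was lower in LP than in ML of KO mice. It had 0 counts in all 4 KO LP libraries, against 18, 10, 36 and 20 counts in KO ML replicates 1 to 4. Every KO LP library was below every KO ML library for 8.89% of genes. Against a floor of 3 counts over the LP group, its level was at least 24.5-fold lower in KO LP than in KO ML. The edgeR adjusted p was 7.27e-04, from 3.05e-04 to 0.00306 when 1 library was left out, where 202 of 12711 genes (1.59%) were lower in LP and 519 (4.08%) higher, 5.67% in all. The gene entered this fit through its basal libraries, whose values chose it, and the filter left it out of a fit of the 8 luminal libraries alone. With those 8 libraries and no filter, a setting added after these values were seen, the edgeR adjusted p was 6.68e-04. In WT mice it had 1 count over the LP libraries and 27 over the ML libraries, a ratio of 25.5 with an exact 95% counting interval from 4.21 to 1040. It did not pass with edgeR (adjusted p = 0.103), while DESeq2 gave an adjusted p of 0.0444. In WT too it entered these fits through its basal libraries. With the 8 WT luminal libraries alone and no filter, the edgeR adjusted p was 0.0643, which does not pass. Of the 27 counts 18 came from WT ML replicate 3, and the fitted log2 value of -4.35 was -3.02 without that library and -5.83 without WT LP replicate 1, which held the single LP count.

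Basal transcripts in ML libraries were measured beside this, since Slc14a1 was most abundant in KO basal cells. Slc14a1 in KO ML stood at 5.04% of its KO basal mean (range 1.87% to 9.23%), and the summed basal marker list at 0.887% of its own KO basal mean (range 0.378% to 1.57%). In KO LP the same quantities were 0% for Slc14a1 and 0.673% for the list. The list summed to 53.3, 189, 139 and 45.4 CPM in KO ML replicates 1 to 4. The part of basal transcripts in the Slc14a1 values of ML libraries was not tested.

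No other member passed between LP and ML in either genotype. Zbed3 had 11.9 to 19.6 CPM in KO LP and 3.00 to 9.83 CPM in KO ML, which do not overlap, as for 9.24% of genes with every KO LP library above every KO ML library, and did not pass (log2 1.23, SE 0.52, edgeR adjusted p = 0.227). In WT mice it had 0.46 (SE 0.43, edgeR adjusted p = 0.612). Camk1d had -0.49 (SE 0.41, edgeR adjusted p = 0.704) in KO and -1.56 (SE 0.67, edgeR adjusted p = 0.159) in WT. Ano10 had log2 fold changes of 1.10 (SE 0.71) in KO and -0.25 (SE 0.69) in WT, and Mcam of -0.67 (SE 0.56) in KO and 0.83 (SE 0.56) in WT, and none of these 4 values passed. These fits also held the basal libraries. In fits of the luminal libraries alone, added after the data were seen, SE were smaller for Ano10 and Zbed3. Ano10 had 1.07 (SE 0.41, edgeR adjusted p = 0.121) in KO and -0.26 (SE 0.34) in WT. Zbed3 had 1.21 (SE 0.43, edgeR adjusted p = 0.0924) in KO and 0.44 (SE 0.34) in WT. The SE of Camk1d and Mcam were larger there, and none of these genes passed.

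**Figure D5:**
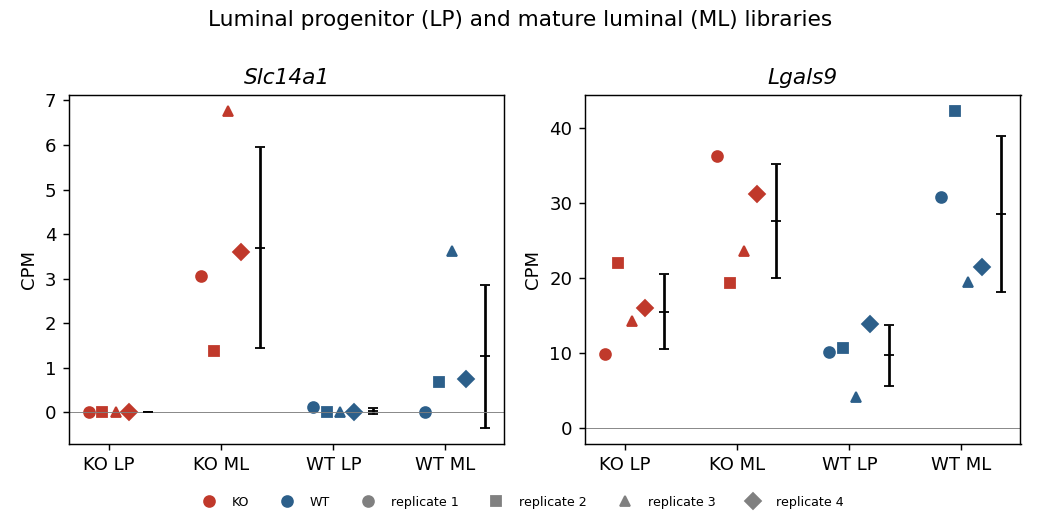
CPM of Slc14a1 and Lgals9 in the LP and ML libraries of KO (red) and WT (blue) mice, with symbols giving the replicate and bars the mean ± SD of 4 libraries. Slc14a1 is at 0 in all KO LP libraries and at 1.37 to 6.76 CPM in KO ML, and the WT LP points of Lgals9 lie below all WT ML points.

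Genes that work with each member were read from lists chosen by function. None of the members of these lists passed between KO and WT in LP or in ML, so the counts below are of the LP against ML comparisons, and basal values are descriptions. Over all genes 6.62% were higher and 4.89% lower in LP in WT mice, and 4.08% higher and 1.59% lower in KO mice. Of the calmodulin and calmodulin-dependent kinase genes around Camk1d, 9 of 13 were tested in basal cells. Their median log2 fold change of KO over WT was 0.08, against 0.01 over all genes, with the largest values in Camkk2, a kinase that activates CaMKI (0.61, SE 1.09), and Camk2d (0.39, SE 0.45). Between LP and ML in WT mice Camk2d was higher in LP, averaging 50.1 ± 14.6 CPM in WT LP and 22.2 ± 5.01 CPM in WT ML (edgeR adjusted p = 0.0104). Camk1d itself had -1.56 there and did not pass.

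Of 11 urea and water channel genes 9 were in the table and 1, Aqp1, was tested in basal cells, with a log2 fold change of 0.39 (SE 0.98). None of the 3 tested between LP and ML passed in either genotype. Among 9 ligands and co-receptors of MCAM the basal median was 0.02. Apart from Pdgfrb, Lgals1, galectin-1, had 1.52 (SE 1.11), and Lama4, of the laminin that MCAM binds, had 0.08 (SE 0.62). In WT mice 3 of 7 were lower in LP than in ML, where 4.89% of all genes were. The laminin chain gene Lama5 averaged 60.2 ± 16.7 CPM in WT LP and 296 ± 50 CPM in WT ML (edgeR adjusted p = 3.84e-05). Wnt5a, a signalling ligand, stood at 28.4 ± 19.4 CPM in WT LP and 220 ± 84.3 CPM in WT ML (edgeR adjusted p = 0.00100), and the third was Lamc1. In KO mice 1 of 8 was lower in LP, again Lama5 (edgeR adjusted p = 0.00231), and 1 higher, Lama4 (edgeR adjusted p = 0.0478).

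The galectin list, with binders of galectin-9, had a basal median of 0.16 over 7 tested genes. Apart from Lgals1 the largest value was that of Lgals3, galectin-3, at -0.92 (SE 1.2). Cd44, a hyaluronan receptor that galectin-9 can bind, was the 1 of 6 that passed between LP and ML. It was higher in LP, averaging 301 ± 114 CPM in WT LP and 28.7 ± 10.9 CPM in WT ML (log2 3.40, SE 0.39, edgeR adjusted p = 4.75e-05), the opposite direction to Lgals9. In KO mice it averaged 380 ± 97.6 CPM in LP libraries, against 37.3 ± 9.43 CPM in ML libraries (edgeR adjusted p = 1.42e-05).

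The Axin complex, to which the Zbed3 protein binds, marks beta-catenin for destruction and is held in check by dishevelled proteins. Its 12 genes had a basal median of 0.07, with the largest values in the dishevelled genes Dvl2 (-1.40, SE 0.79) and Dvl1 (-0.99, SE 0.89). Apc, a scaffold of the complex, was the 1 of 12 that passed between LP and ML in WT mice. It was lower in LP, averaging 276 ± 47.5 CPM in WT LP and 590 ± 256 CPM in WT ML (edgeR adjusted p = 0.0213). The other Zbed genes tested, Zbed4, Zbed5 and Zbed6, had basal values of -0.72 (SE 0.95), -0.81 (SE 1.15) and -0.01 (SE 0.33), all below 0 where Zbed3 had 2.20.

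Of 9 further anoctamins 3 were tested in basal cells, where Ano4 had -1.38 (SE 1.46), Ano1, a calcium-activated chloride channel, -0.46 (SE 0.35), and Ano6, a lipid scramblase, 0.45 (SE 0.35). In WT mice Ano6 was lower in LP than in ML, at 88.8 ± 19.6 CPM in WT LP and 153 ± 36.7 CPM in WT ML (edgeR adjusted p = 0.0334), 1 of 5 tested. The ID and E protein list had a basal median of 1.15 over 7 genes, with the largest values in Id4 itself (-2.80, SE 0.87) and Id3 (2.65, SE 0.42). Id3 was the 1 of 7 that passed between LP and ML in WT mice, lower in LP at 3.71 ± 1.81 CPM, against 21.8 ± 8.12 CPM in ML (edgeR adjusted p = 0.00217), the direction of Lgals9.

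Last, the genes whose pattern was most like each member were taken by Pearson correlation of log2(CPM + 0.5) over the 24 libraries. The points share population, genotype and library, so these values describe likeness and nothing more. Camk1d was most like Tcf4, an E protein gene, at r = 0.960, followed by Ptrf, a caveolar protein gene, at 0.916 and Slc6a6, a taurine transporter gene, at 0.915. Tcf4 was also its closest gene by Spearman correlation, at 0.937. Lgals9 was most like Id3 (0.905), Ifitm3 (0.876) and Cav1 (0.863), and Slc14a1 like Pkp1, of the desmosome (0.921), Itga3, an integrin (0.888), and Clic4 (0.880).

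Mcam was most like Pvrl3, a nectin, Camta1 and Eogt, at 0.913, 0.913 and 0.911. Correlations were lower for Zbed3 and Ano10. Zbed3 reached 0.829 with Fam46b, 0.776 with Spry4 and 0.770 with Zeb2, a repressor of epithelial genes. Ano10 reached 0.814 with Smpd1, a lysosomal sphingomyelinase gene, 0.809 with Chchd3 and 0.807 with Nt5dc1. Among the members themselves r over the 24 libraries was 0.65 to 0.84 for each pair of Camk1d, Slc14a1, Mcam and Lgals9. The choice put KO above WT in the basal libraries for each gene, which favours r above 0 over these libraries. Over the 16 luminal libraries the same pairs ran from -0.31 to 0.58. Ano10 had r between -0.05 and 0.16 with these 4 genes and 0.52 with Zbed3 over all libraries.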

How the data were processed

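The table deposited by the authors holds unnormalized expected counts of each gene in each library and a gene length, per the file headers. Cutadapt, STAR and RSEM and the build mm10 appear in the submitters' processing notes, without versions. Counts were rounded before testing. KO was compared with WT in the 8 libraries of a population, LP with ML in the 12 libraries of a genotype, and the KO effect between LP and ML in all 24. Each test was edgeR 4.0.16's two-sided quasi-likelihood F-test (R 4.3.3, TMM scaling, default expression filter, robust dispersion, Benjamini-Hochberg adjustment over all genes at 0.05), checked on simulated data. DESeq2 1.42.0 was an alternative, beside RLE scaling, no filter, a replicate block and leaving out each library. CPM use TMM factors of all 24 libraries, and SE is the log2 fold change divided by the root of F. Replicate numbers come from the sample titles, from which the replicate tags of KO ML differ. Same-numbered KO and WT libraries deviated together in LP (r 0.118 to 0.356), ML (0.122 to 0.332) and basal cells (0.057 to 0.14). The main fits left the replicate numbers out, and the replicate block put them in. No pair of libraries of a group differed by as little as counting noise (chi-square per degree of freedom at least 20.8).

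The members and gene lists were chosen with earlier results of these data known. Beside the members and Id4, genes were named by rule: the 3 most correlated with each member, and of each list up to 2 that passed with the smallest p and the 2 with the largest basal fold change. Lama4, Lamc1, Zbed6, Dusp10, the basal value of Ano6 and list genes in KO LP against ML were named after their values were seen. No column of the table was left unmapped. The result of 1 list gene is not reported here.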

Additional observations from a re-analysis of the deposited data

Results flagged for a closer look

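Among 35 groups of 4 libraries tested, 1 for each gene and group that was not at 0 throughout, 3 held a library far from the other 3 by Dixon's criterion, where chance flags about 1 in 20. Mcam in KO ML replicate 1 stood at 20 CPM, with the nearest library at 5.21 CPM. Camk1d in KO ML replicate 4 stood at 9.70 CPM, with the nearest at 4.51 CPM. Slc14a1 in WT LP replicate 1 stood at 0.126 CPM, which is a single count where the other 3 libraries had 0.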

How the results depend on the processing

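In basal cells all 6 fold changes stayed above 0 under all 16 alternatives each. The rule had already put every KO basal library above every WT basal library. The sign thus had little room to turn, and its constancy is no support. In LP and ML no alternative called a member between KO and WT, nor did any for the difference between LP and ML in that effect. The signs of uncalled values turned in places, so their ranges over fits that leave out 1 library are given: Mcam from -0.70 to 0.14 and Zbed3 from -0.04 to 0.43 in LP, Camk1d from -0.16 to 1.15, Lgals9 from -0.20 to 0.21 and Ano10 from -0.39 to 0.04 in ML, and Mcam from -1.15 to 0.10 for LP against ML in KO.

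The count of members passing between LP and ML in WT was 1, 2 with DESeq2 (Lgals9 and Slc14a1), and 0 to 1 when 1 library was left out. Slc14a1 entered that DESeq2 fit through its basal libraries, whose values chose it. In KO it was 1, and 0 in a fit of the luminal libraries alone, added after seeing the data, which did not test Slc14a1, but 1 in that fit without the expression filter. Over all genes the calls in LP were 0, 8 with DESeq2 and 0 to 1 with 1 library left out. In ML they were 1, 8 with DESeq2, 0 with RLE scaling, 0 with the replicate block, and 0 without any 1 library. The difference between LP and ML in the KO effect had 0 calls and 1 with DESeq2. LP against ML in WT had 1470 calls and 2449 from luminal libraries alone (2640 without the filter). In KO it had 721, 1182 with DESeq2, 1452 from luminal libraries alone (1585 without the filter), and 382 to 744 with 1 library left out. The cause of these moves was not tested.

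The replicate block changed no call of a member. With it the log2 fold change of KO over WT for Ano10 in LP was 1.09 (SE 0.37, edgeR adjusted p = 0.545). In ML it was 2.03 (SE 0.81, edgeR adjusted p = 0.677) for Slc14a1 and 0.54 (SE 0.69, edgeR adjusted p = 0.879) for Camk1d. The block gave 852 calls in KO and 1748 in WT for LP against ML. The lowest same-number correlation was 0.045 in KO, with 3 of 4 libraries correlating best with their own number, and 0.088 in WT, with 4 of 4. In basal cells the lowest was 0.057, with 4 of 4. Spearman in place of Pearson correlation kept 1 of the 3 most similar genes for Camk1d, 0 for Slc14a1 and Mcam, 2 for Lgals9, and 1 each for Zbed3 and Ano10. Depth limits Slc14a1 in luminal cells, where 3 counts over the KO LP libraries are 0.142 CPM, and Ano10 in WT basal cells, with at most 21 counts.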
